A study of Glycine max with 6 samples.

Results

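GmNAC004 (Glyma.01G088200), GmNAC008 (Glyma.02G100200) and GmNAC170 (Glyma.10G204700) are soybean NAC genes of the ANAC063 subfamily whose transcripts were more abundant in old than in young leaves. They are 3 of the 8 genes followed here as the ANAC063 group, and 3 of the 56044 genes of the count table. They were selected on their higher counts at 80 than at 20 days after germination (DAG), so their change with age is a description and is given without a test. At 80 DAG the mean level was 2.27-fold higher for GmNAC004 and 2.24-fold higher for GmNAC008, whereas GmNAC170 went from 1 to 9 counts per library to 20 to 46 counts. Another gene of the group, GmNAC142 (Glyma.19G056400), was much less abundant in the old than in the young leaves.

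RNA-seq was done on leaf disks of wild-type plants of the cultivar BR16 grown in soil in a greenhouse, with 3 libraries at 20 DAG and 3 at 80 DAG and no treatment at either age. The study's methods give the stages as V3 (vegetative) and R7 (late reproductive) and describe biological triplicates, whereas the sample labels call both ages vegetative. The third and the seventh trifoliate leaves were sampled, and the sources used here do not say which was taken at which stage. Age, plant stage and possibly leaf position therefore changed together and cannot be told apart.

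NAC proteins are a plant-specific family of transcription factors that bind DNA through a conserved N-terminal NAC domain. In the study's tree the ANAC063 group holds Arabidopsis SOG1 (ANAC008), which in that species is the central transcription factor of the response to DNA damage and is activated through phosphorylation by the kinases ATM and ATR. It also holds ANAC044 and ANAC085, which in Arabidopsis act under SOG1 in halting the cell cycle. These roles are known from Arabidopsis only, and the study's tree gave this subfamily weaker support than the others. The soybean genes followed here were treated as duplicated pairs, namely GmNAC004 with GmNAC008, GmNAC170 with GmNAC150 (Glyma.20G185800), GmNAC025 (Glyma.05G002700) with GmNAC180 (Glyma.19G002900), and GmNAC142 with GmNAC178 (Glyma.16G069300). The study dated the divergence of these pairs except GmNAC004 with GmNAC008, which holds no newly added gene. GmNAC150 entered the group as the duplicate of GmNAC170. The locus names place the 3 members on chromosomes 1, 2 and 10 of the Wm82.a2.v1 assembly.

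Library depth lay between 10758425 and 15883253 counts, with 36691 to 39834 genes detected per library. A single gene took between 18.7% and 27.4% of the counts of each library. All levels are given as CPM, the counts divided by the library's total over tested genes, after that total was scaled by edgeR's TMM factor (trimmed mean of M-values), and expressed per 1000000. In leaf tissue measured as a whole, a change in the cells that carry a transcript and a change in the transcript per cell cannot be told apart. How the counting treated reads shared by near-identical copies, or used strand, is not given in the sources used here, so the split of reads within each duplicated pair is uncertain.

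In the young libraries 1 to 3, GmNAC004 was counted 34, 66 and 38 times, and in the old libraries 196, 104 and 134 times. Scaled, these were 3.62, 5.14 and 3.79 CPM at 20 DAG and 10.6, 8.56 and 9.29 CPM at 80 DAG. Every old library was above every young one, and the lowest old library was 1.67 times the highest young one. The mean went from 4.18 ± 0.83 CPM (SD, n = 3) to 9.49 ± 1.05 CPM (SD, n = 3), and the fitted log2 fold change was 1.17 with a standard error of 0.20. Pooled over libraries, the ratio of scaled counts was 2.25, with an exact 95% interval of 1.86 to 2.75 that covers counting error only.

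Its duplicate GmNAC008 followed closely. It was counted 32, 48 and 40 times in young leaves and 150, 98 and 126 times in old leaves, which corresponds to 3.41, 3.74 and 3.99 CPM and to 8.14, 8.06 and 8.74 CPM. The libraries of one age lay near each other and the ages did not overlap, the lowest old library being 2.02 times the highest young one. The mean was 3.71 ± 0.29 CPM (SD, n = 3) at 20 DAG and 8.31 ± 0.37 CPM (SD, n = 3) at 80 DAG. The fitted log2 fold change was 1.16 with a standard error of 0.16. The pooled ratio of 2.23 had an exact 95% counting interval of 1.81 to 2.77.

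GmNAC170, which the study added to the soybean NAC inventory, was much scarcer. The young libraries held 1, 9 and 3 of its counts and the old ones 29, 46 and 20, or 0.11, 0.70 and 0.30 CPM followed by 1.57, 3.79 and 1.39 CPM. Library 2 was the highest at each age, and the ages still did not overlap. The mean was 0.37 ± 0.30 CPM (SD, n = 3) at 20 DAG and 2.25 ± 1.33 CPM (SD, n = 3) at 80 DAG. Its fitted log2 fold change of 2.47 carried a standard error of 0.65, and the pooled ratio of 5.24 had a counting interval of 2.92 to 10.2. The log2 fold change depended on single libraries. It was 3.37 without 20 DAG replicate 2 and 1.90 without 80 DAG replicate 2, the extremes with 1 library left out.

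**Figure D1:**
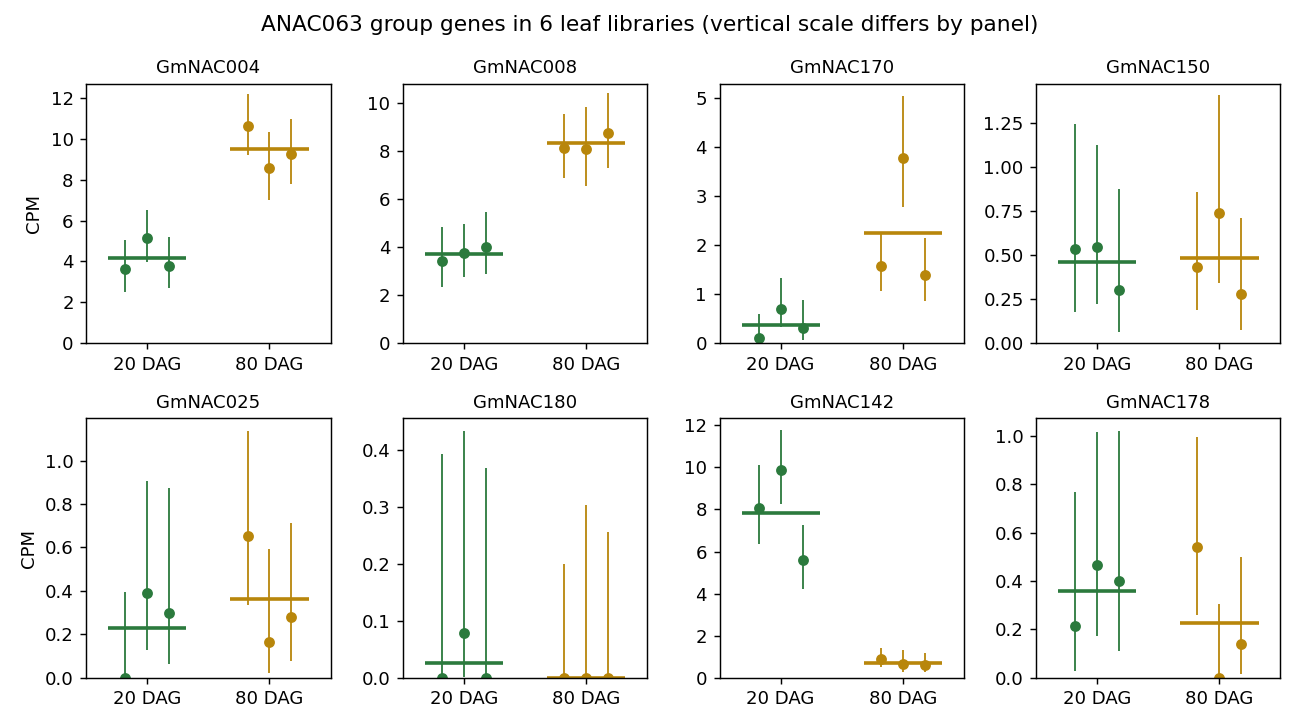
CPM of the 8 ANAC063 group genes in each library (points, with exact 95% counting intervals) and the mean of each age (horizontal bars), on a linear axis that differs by panel. GmNAC004, GmNAC008 and GmNAC170 have every 80 DAG library above every 20 DAG library, GmNAC142 has every 80 DAG library below, and the other 4 genes overlap at no more than 0.74 CPM.

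How tightly the replicates agreed differed among the 3 genes. Within an age the coefficient of variation was 19.8% and 11.1% for GmNAC004 at 20 and 80 DAG, 7.91% and 4.43% for GmNAC008, and 82.2% and 59.3% for GmNAC170. The biological coefficient of variation that edgeR estimated, which sets counting noise aside, was 18.1%, 14.7% and 45.6% respectively. Among the 1000 tested genes nearest in mean level, 2.6% had a lower value than GmNAC008, 35.8% a lower value than GmNAC004 and 89.8% a lower value than GmNAC170. GmNAC008 was thus among the steadier genes of its level and GmNAC170 among the more variable ones, as a description of these 6 libraries.

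Per coding length, which allows levels of different genes to be set side by side, the order of the group was turned over between the ages. At 20 DAG GmNAC142 led with 6.58 ± 1.81 CPM per kb (SD, n = 3), above GmNAC004 with 3.09 ± 0.61 and GmNAC008 with 2.84 ± 0.22 CPM per kb. GmNAC170, with 0.29 ± 0.24 CPM per kb, then lay among its weakly expressed relatives and overlapped with GmNAC150, GmNAC178 and GmNAC025. At 80 DAG GmNAC004 (7.02 ± 0.78 CPM per kb) and GmNAC008 (6.36 ± 0.28 CPM per kb) came first and did not separate from each other. GmNAC170 followed at 1.78 ± 1.05 CPM per kb, with all its old libraries below those of GmNAC008 and above those of GmNAC142, which had come down to 0.60 ± 0.11 CPM per kb.

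The sum over the 8 genes was 15.97, 20.9 and 14.7 CPM in the young libraries and 22.8, 22.0 and 20.7 CPM in the old ones, so that 1 young library reached the level of the old ones. The make-up differed between the ages. The 3 members held 44.7%, 45.7% and 55.1% of the group's counts at 20 DAG and 89.1%, 92.9% and 93.6% at 80 DAG. GmNAC142 held 38.1% to 50.7% at 20 DAG and 3.00% to 3.80% at 80 DAG. The members were selected on higher counts at 80 DAG, so the rise in their share follows largely from that selection and is a description. These shares are of counts and are not corrected for length.

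**Figure D2:**
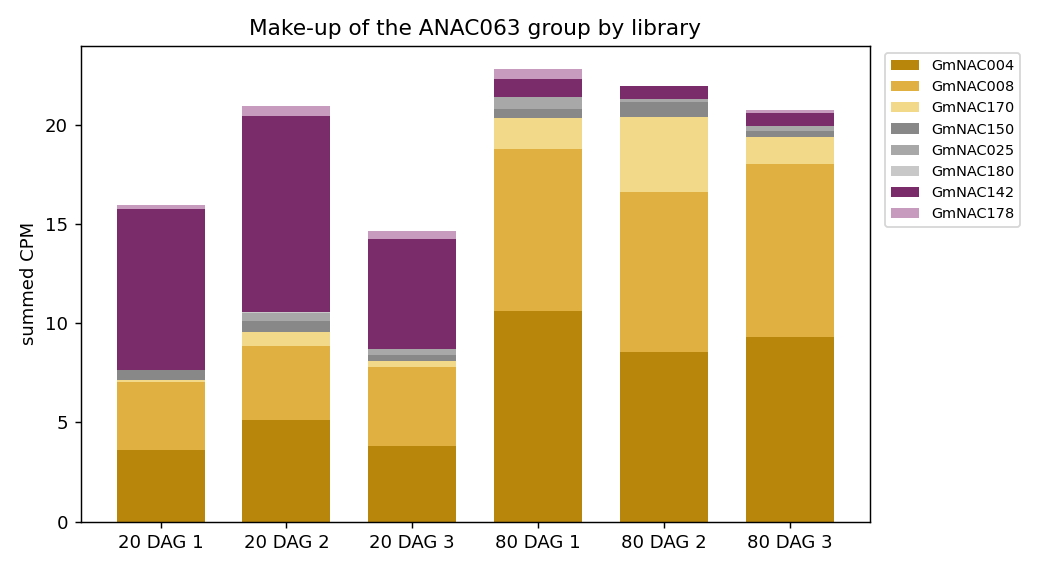
Summed CPM of the ANAC063 group in each library, stacked by gene (linear axis from 0). GmNAC004, GmNAC008 and GmNAC170 (yellow tones) make up 44.7% to 55.1% of the young bars and 89.1% to 93.6% of the old bars, while GmNAC142 (dark purple) shrinks from at least 38.1% to at most 3.80%.

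Over the whole table, 30058 genes passed the filter on low counts and 49.1% of them differed between the ages by edgeR (quasi-likelihood test, Benjamini-Hochberg adjusted p under 0.05), with 23.1% higher and 26.0% lower at 80 DAG. Of the 8 ANAC063 group genes 4 passed the filter and all 4 passed this test. The 3 higher ones are the members, a count that their selection fixes and from which nothing is read. GmNAC170 had too few young counts to pass the filter on those libraries alone, so its place among the tested genes came from the age in which it is high. The same holds for GmNAC142, which reached the filter's level in 3 young libraries and 1 old one. Groups that did not overlap were common as well, since 29.6% of tested genes had every old library above every young one and 31.2% had every old library below.

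GmNAC142 was the gene that moved the other way. Its counts were 76, 127 and 56 in young leaves and 16, 8 and 9 in old leaves, which is 8.09, 9.88 and 5.59 CPM against 0.87, 0.66 and 0.62 CPM. Its mean was 10.96-fold lower at 80 DAG, and the lowest young library was 6.44 times the highest old one. The log2 fold change was −3.42 with a standard error of 0.30 among the filtered genes. Without the filter, which GmNAC142 passed through its young libraries, it was −3.39 (edgeR, quasi-likelihood test, Benjamini-Hochberg adjusted p = 8.3e-05, lower in 3 of 3 old libraries). GmNAC142 pairs with GmNAC178, on a branch of the study's tree that also holds ANAC044 and ANAC085.

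The other 4 genes did not pass the filter and were read from the fit without it. GmNAC150, the duplicate of GmNAC170, was counted 5, 7 and 3 times in the young libraries and 8, 9 and 4 times in the old ones, with a log2 fold change of 0.08 and a standard error of 0.56. GmNAC025 had 8 counts over the young libraries and 18 over the old ones, and GmNAC178 had 12 at each age. GmNAC180 had 1 count in 1 young library and none in the other 5, and 3 counts in the deepest library, the limit that a count of 0 allows there, would be 0.16 CPM. In the edgeR fit without the filter 0 of these 4 genes were called and 0 had an unadjusted p under 0.05, and DESeq2 called 0 as well. The standard errors of their log2 fold changes lay between 0.56 and 1.702, wide beside the 1.17 of GmNAC004, and this depth does not show that they were unchanged.

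**Figure D3:**
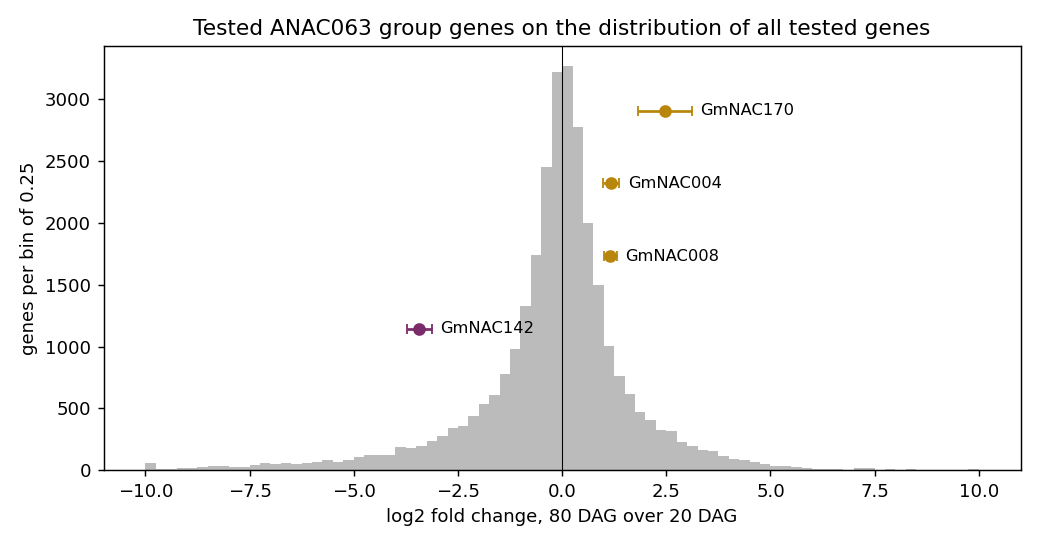
Histogram of the log2 fold change of the 30058 tested genes (80 DAG over 20 DAG, values beyond 10 drawn at the ends) with the 4 tested ANAC063 group genes and their standard errors; the height of the points has no meaning. GmNAC004 and GmNAC008 lie on the shoulder of the distribution at 1.17 and 1.16, GmNAC170 lies further out at 2.47 and GmNAC142 lies in the lower tail at −3.42.

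In a leaf transcriptome that changed this widely the rise of GmNAC004 and GmNAC008 was moderate in size. Among all tested genes 15.1% had a larger log2 fold change than GmNAC004, 15.3% a larger one than GmNAC008 and 5.81% a larger one than GmNAC170. At the other end 5.998% of the tested genes had a lower log2 fold change than GmNAC142. Within the NAC family 85 of 180 GmNAC genes were tested, of which 34 were called higher and 14 lower at 80 DAG, beside 23.1% and 26.0% of all tested genes; no test of the family was made. Of the 34 higher ones, 29 had a larger log2 fold change than GmNAC004, 30 a larger one than GmNAC008 and 17 a larger one than GmNAC170, so the pair GmNAC004 and GmNAC008 stood near the bottom of the up-regulated GmNAC genes and GmNAC170 in their middle.

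GmNAC004 and GmNAC008 were both selected as higher in old leaves, and which of these copies holds more of the transcript did not enter that selection, so it was tested. GmNAC004 took 51.5%, 57.9% and 48.7% of the counts of its pair in the young libraries and 56.6%, 51.5% and 51.5% in the old ones. With counts pooled by age the share was 53.5% at 20 DAG (exact Clopper-Pearson 95% interval 47.2% to 59.7%) and 53.7% at 80 DAG (50.2% to 57.2%). Per coding length the mean log2 ratio of GmNAC004 to GmNAC008 was 0.12 ± 0.20 (SD, n = 6), above 0 in 5 of 6 libraries (exact two-sided sign-flip permutation test, p = 0.281, smallest possible p 0.0313). The ratio ranged from −0.12 to 0.41 across libraries, so neither copy led beyond the spread between libraries, and the 2 means by age were 0.11 and 0.14.

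In the other pair the balance differed with age. GmNAC170 took 1 of 6, 9 of 16 and 3 of 6 counts of the pair at 20 DAG, and 29 of 37, 46 of 55 and 20 of 24 at 80 DAG. With counts pooled its share was 46.4% (exact interval 27.5% to 66.1%) at 20 DAG and 81.9% (73.7% to 88.4%) at 80 DAG. The counts of GmNAC150 stayed between 3 and 9 in all 6 libraries, and the shift in share therefore came with the rise of GmNAC170 by which it was chosen, so it is a description. Over all 6 libraries the mean log2 ratio of GmNAC170 to GmNAC150 per coding length was 0.86 ± 1.62 (SD, n = 6), a value that pools ages far apart and is given with no test. By age the mean ratio was −0.44 at 20 DAG, with libraries from −1.81 to 0.41, and 2.16 at 80 DAG, with libraries from 1.86 to 2.36.

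**Figure D4:**
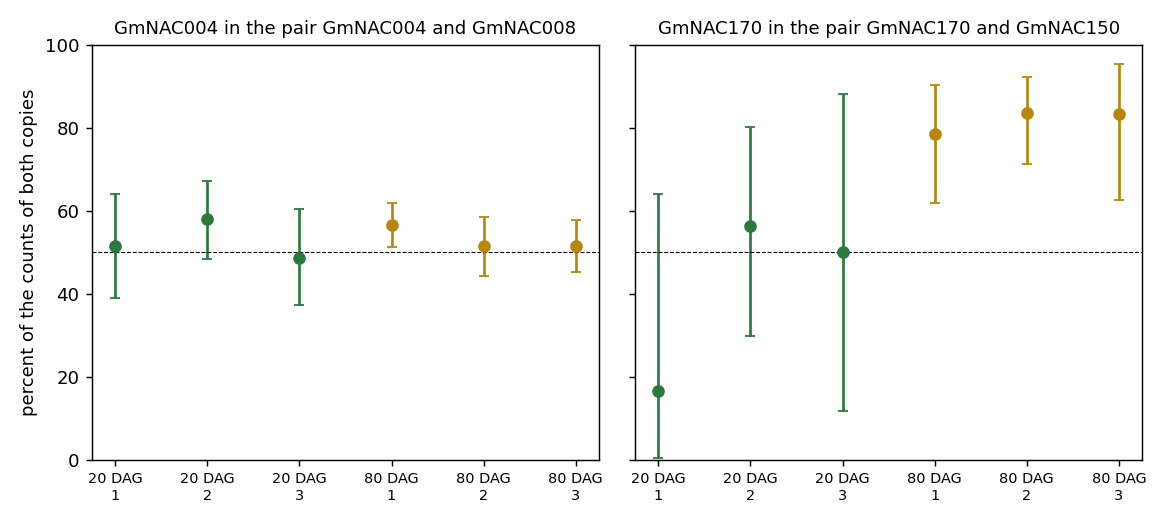
Share of the counts of a duplicated pair that fell to GmNAC004 (left) and to GmNAC170 (right) in each library, in percent, with exact 95% binomial intervals that cover counting error only; the dashed line marks equal shares. GmNAC004 stays between 48.7% and 57.9% in all 6 libraries, and GmNAC170 lies at 16.7% to 56.2% in the young libraries and at 78.4% to 83.6% in the old ones.

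The 3 members also differed in which libraries stood high within an age. On the log2 CPM scale with a prior count of 2, 20 DAG library 2 lay 0.30 above its age mean for GmNAC004 and 0.87 above it for GmNAC170, but only 0.01 above it for GmNAC008. At 80 DAG library 2 lay 0.85 above the mean for GmNAC170, while it lay at −0.14 for GmNAC004 and at −0.04 for GmNAC008. The excess of GmNAC170 in 80 DAG library 2 was therefore not shared by the other members. Its duplicate GmNAC150, which is not a member, was highest at 80 DAG in that library too. It stood at 0.74 CPM there, against 0.43 and 0.28 CPM in libraries 1 and 3, from only 4 to 9 counts per library. That library was also the one in which a single gene took 27.4% of the counts, and the part of this in the value was not tested.

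Over the 6 libraries the Pearson correlation of log2 CPM was 0.95 between GmNAC004 and GmNAC008, 0.88 between GmNAC004 and GmNAC170 and 0.87 between GmNAC008 and GmNAC170, values that rest mostly on the difference between the ages that chose the members. GmNAC142 ran against them, with −0.91, −0.99 and −0.84. Many genes shared these patterns, since 2500 tested genes had a correlation above 0.95 with GmNAC004, 2569 with GmNAC008 and 567 with GmNAC170. The gene most like GmNAC004 was Glyma.02G204100 at 0.999 and the gene most like GmNAC008 was Glyma.17G081200 at 0.999, and the 3 genes most like GmNAC170 had correlations of 0.997 to 0.998. Within the NAC family, a restriction chosen after the values were seen, the nearest patterns were those of GmNAC036 to GmNAC004 (0.993), GmNAC179 to GmNAC008 (0.995) and GmNAC061 to GmNAC170 (0.964). The duplicate GmNAC008 ranked 2220 among all tested genes in likeness to GmNAC004.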

How the data were processed

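The authors deposited 1 table of whole-number counts per gene of the Wm82.a2.v1 gene models, without normalization, from stranded paired-end libraries of leaf RNA depleted of ribosomal RNA. The submitters' processing notes list CASAVA 1.7, Bowtie2 and DESeq2 with no roles, and the counting program is not given in the sources used here. The columns carry the sample names, and 0 columns were left unmapped.

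Counts were filtered with filterByExpr, scaled by TMM and compared between ages with edgeR's quasi-likelihood test (edgeR 4.0.16, R 4.3.3). The p-values were Benjamini-Hochberg adjusted over every gene tested, with a threshold of 0.05 and no minimum fold change. Before that the script had been run on simulated counts. Those held far fewer changed genes than were called here, so the run checked the script only. The standard error of a log2 fold change was obtained from its size and the square root of F. The edgeR p-values set the difference between the ages against the spread between these 6 libraries. Ratios of copies used counts plus 0.5 per coding length, from the protein lengths of the study's inventory, and summaries used Python 3.11.15, numpy 2.4.6, pandas 2.3.3 and scipy 1.17.1. Intervals cover counting error only.

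The members and lists were chosen with earlier results of these data known. The genes named are the 3 members, the other 5 genes of the group and, for each member, the 3 tested genes with the highest correlation, of which 2 are given by identifier because names for genes outside the NAC family are not used here. GmNAC036, GmNAC179 and GmNAC061, the nearest NAC genes, were added once their values were known. A planned test of the ratio of GmNAC170 to GmNAC150 is given as a description, because the selection used the counts of GmNAC170. A list of DNA damage response genes, cell type markers and promoter motifs had been planned and were not analysed here, because the gene identifiers could not be matched to descriptions or sequences. The leaf identity of the samples was therefore not checked by markers. Independent hypothesis weighting, used by the study, was not applied. The alternatives were DESeq2 1.42.0 as a test or for size factors, library size alone, no filter beyond 1 count in any library, a minimum of 10 counts in each of the libraries, a replicate block, leaving out each library, an adjusted p under 0.01 and, for the ratios, a pseudocount of 1 and raw counts with no length.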

Additional observations from a re-analysis of the deposited data

How the results depend on the processing

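The log2 fold changes of GmNAC004, GmNAC008 and GmNAC170 stayed above 0 under every alternative that could be fitted, between 1.08 and 1.39, 1.10 and 1.39, and 1.90 and 3.37. Scaling by library size alone gave 1.39 for GmNAC008, while it moved the median over all tested genes from −0.02 to 0.21. With each library left out, the values ranged from 1.08 to 1.35 for GmNAC004, from 1.10 to 1.21 for GmNAC008 and from 1.90 to 3.37 for GmNAC170. The number of ANAC063 group genes called was 4, and it was 2 with at least 10 counts in every library, where GmNAC170 and GmNAC142 could not be tested, 3 at an adjusted p under 0.01, and 3 to 4 with each library left out, GmNAC170 being lost without 20 DAG replicate 3. The 3 members among the 4 were selected on this same contrast. These counts and the signs of the members' log2 fold changes are therefore descriptions, and nothing is read from them. Of all genes 14758 were called, against 9492 at an adjusted p under 0.01 and 11696 to 14817 with each library left out. GmNAC142 was called under all 11 alternatives in which it was tested, with log2 fold changes from −3.63 to −3.21. Apart from the fit without the filter and the DESeq2 test, these used the filter that GmNAC142 passed through its young libraries. Without that filter its log2 fold change lay between −3.58 and −3.18 with each library left out. Between libraries of the same replicate number the correlation of deviations was −0.24, −0.33 and 0.07 for numbers 1 to 3. These values gave no sign of pairing by number, but 3 values cannot exclude it. With a replicate block 4 group genes and 11702 genes in all were called. The log2 ratio within pairs ranged from 0.07 to 0.17 for GmNAC004 to GmNAC008 and from 0.56 to 1.39 for GmNAC170 to GmNAC150, the latter with no test. For GmNAC004 to GmNAC008 no p was under 0.05, although with 5 libraries the exact test cannot give less than 0.0625. The raw ratio without length had p = 0.0625 for GmNAC004 to GmNAC008 (exact sign-flip permutation test, 6 libraries). Depth limits GmNAC170 at 20 DAG and the 4 genes that did not pass the filter.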
